A study of Homo sapiens with 2 samples.

Results

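The dual-specificity MAP kinase phosphatases are the enzymes that switch the MAP kinases ERK, JNK and p38 off. Their 10 genes (DUSP1, DUSP2, DUSP4, DUSP5, DUSP6, DUSP7, DUSP8, DUSP9, DUSP10 and DUSP16) were taken as a family, and every probe set annotated to 1 of them alone was used, which gave 22 of the 54675 probe sets on the array and 10 of 19775 annotated genes. The RNA came from H322c cells, an established non-small cell lung cancer (NSCLC) line, after 4 days with 1 µM gefitinib, an inhibitor of the EGFR tyrosine kinase, or with 0.1% DMSO. Both cultures were plated 24 hrs before drug or vehicle in RPMI medium with fetal bovine serum, and each gave 1 Affymetrix U133 Plus 2.0 array. With 1 array per condition there was no replicate and no test, so every difference below describes these 2 arrays from 1 cell line.

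A MAP kinase becomes active when a threonine and a tyrosine in its activation loop are both phosphorylated. The MAP kinase phosphatases remove both phosphates, and they bind their kinase through a docking domain that the smaller dual-specificity phosphatases lack. Several are themselves transcribed in response to MAP kinase activity and so act as feedback inhibitors, and EGFR is a well-known activator of the ERK cascade in epithelial cells. By location and substrate the family is usually placed in 3 groups. DUSP1, DUSP2, DUSP4 and DUSP5 are inducible nuclear enzymes, DUSP6, DUSP7 and DUSP9 are cytoplasmic and prefer ERK, and DUSP8, DUSP10 and DUSP16 prefer JNK and p38.

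The values are MAS5 signals, which summarise the short oligonucleotides of a probe set on a linear scale, so a signal is compared only with the signal of the same probe set on the other array. Signals under 100 were set to 100, called the floor here. Genes counted as measured had at least 1 probe set that reached the floor on either array, and the brightest probe set over both arrays stood for the gene. The log2 ratio is gefitinib over DMSO, a difference was counted from 2-fold, and a fold is given as at least that size where 1 of the signals lay under the floor. Of the 10 genes, 8 were measured, through 18 probe sets. DUSP2 and DUSP9 were not: their only probe sets had signals of 13.9 and 37.7 with DMSO and 3.4 and 68.2 with gefitinib.

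The arrays themselves were alike in the values that describe a hybridization. The 2% trimmed mean was 500.1 on each, but the MAS5 scaling sets this value, so it does not compare the hybridizations. The share of probe sets under the floor was 61.6% with DMSO and 60.4% with gefitinib. The ratio of 3' to 5' signal, a measure of RNA integrity, was 0.95 and 1.01 for GAPDH and 1.19 and 1.36 for ACTB. All 6 epithelial markers were measured on both arrays (EPCAM, KRT7, KRT8, KRT18, KRT19 and CDH1), whereas the 4 leukocyte markers with a probe set (PTPRC, CD3E, CD14 and ITGAM) were under the floor on both. Of 5 endothelial markers 2 were measured, VWF at 30.0 (DMSO) and 496.0 (gefitinib) and PECAM1 at 128.4 and 78.0. Of 6 fibroblast markers 1 was measured, COL1A1 at 420.8 and 950.2. The red cell marker HBB read 110.7 and 57.8, with ALAS2 under the floor. The other markers of these lists (CDH5, KDR and TEK, and COL1A2, COL3A1, PDGFRB, DCN and LUM) had no signal above 44.5. The RNA came from a cell line, so these marker signals do not show that other cell types were present. Their source was not tested.

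Among the 8 measured genes, 4 were at least 2-fold lower with gefitinib, namely DUSP4, DUSP5, DUSP6 and DUSP7, and none was at least 2-fold higher. Of all 11223 measured genes, 6.2% were at least 2-fold lower and 13.3% were at least 2-fold higher. A gene can be 2-fold lower above this floor only from a DMSO signal of 200, which all 8 members had, and 7.54% of the 9227 genes with such a signal were at least 2-fold lower. The median log2 ratio of the 8 members was -1.16, against 0.12 for all measured genes. At the level of probe sets, 8 of the 18 measured ones were at least 2-fold lower, against 7.26% of 20172 probe sets, and none was at least 2-fold higher, against 12.1%. As RNA was measured in bulk, less RNA per cell and fewer cells that express a gene cannot be told apart.

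**Figure D1:**
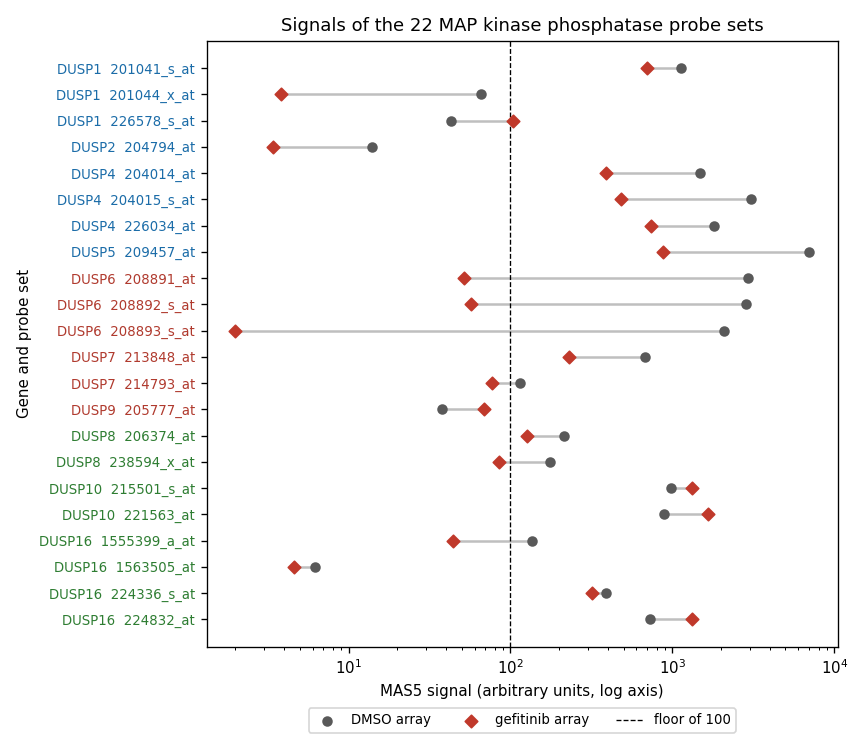
MAS5 signal (horizontal log axis, arbitrary units) of the 22 MAP kinase phosphatase probe sets on the DMSO array (grey circles) and the gefitinib array (red diamonds), 1 array per condition, with the floor of 100 dashed; gene names are coloured by group (blue nuclear inducible, red cytoplasmic ERK-selective, green JNK- and p38-selective). The 3 DUSP6 probe sets run from 2089.2 or more with DMSO to 57.0 or less with gefitinib, and both DUSP10 probe sets have their gefitinib signal to the right.

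DUSP6 is a cytoplasmic phosphatase specific for ERK that holds its kinase outside the nucleus, and its transcript is a classical readout of ERK activity. Probe set 208891_at read 2914.3 on the DMSO array and 51.9 on the gefitinib array. For 208892_s_at these signals were 2855.2 and 57.0, and for 208893_s_at they were 2089.2 and 2.0. All 3 probe sets were thus bright with DMSO and under the floor with gefitinib, so that the differences are bounds of at least 29.1-fold, 28.6-fold and 20.9-fold. On the log2 scale the ratio at the brightest probe set was -4.87, the fifth lowest of 11223 genes with bounds ranked at their bound. At a floor of 200 this probe set had a bound of -3.87. At a floor of 50 both of its signals counted as measured and its log2 ratio was -5.81, but 208892_s_at then had the higher mean log2 signal and stood for the gene, with a measured ratio of -5.65.

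DUSP7, the close relative of DUSP6 with the same preference for ERK, was lower by a smaller ratio. Probe set 213848_at read 678.8 on the DMSO array and 229.0 on the gefitinib array, a difference of 2.96-fold (log2 ratio -1.57). Its second probe set, 214793_at, was near the floor on both arrays, with 114.7 and 77.1, and was at least 1.15-fold lower. The probe sets had the same direction but not the same size, and their mean of -0.88 on the log2 scale did not reach 2-fold. DUSP9, the third cytoplasmic member, was under the floor on both arrays.

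DUSP4 is a nuclear phosphatase of ERK and JNK. Its brightest probe set, 204015_s_at, read 3059.8 on the DMSO array and 485.2 on the gefitinib array, which is 6.31-fold lower (log2 ratio -2.66). The signals of 204014_at were 1488.2 and 387.5, 3.84-fold lower, and those of 226034_at were 1801.0 and 734.9, 2.45-fold lower. All 6 of these signals were above the floor, so the folds are measured on both arrays, and all 3 probe sets passed 2-fold. DUSP4 and DUSP6 were therefore at least 2-fold lower at each of 3 probe sets. DUSP16, the only other member with 3 measured probe sets, was not. Among 2272 genes with 3 or more measured probe sets, 32 (1.41%) were at least 2-fold lower at all of them.

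DUSP5 is a nuclear phosphatase that acts on ERK alone. Its single probe set, 209457_at, read 6987.5 on the DMSO array and 874.9 on the gefitinib array, which is 7.99-fold lower (log2 ratio -3.00). Both signals were well above the floor, and the gene ranked 26 from the lowest ratio of 11223. No second probe set was there to compare it with. The transcribed pseudogene DUSP5P1 has a probe set of its own, with signals of 82.8 and 59.6.

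DUSP1, a nuclear phosphatase of all 3 kinases that is an immediate early gene of growth factors and stress, was within 2-fold. Probe set 201041_s_at read 1136.1 on the DMSO array and 702.1 on the gefitinib array, 1.62-fold lower (log2 ratio -0.69). For 226578_s_at the signals were 42.9 and 103.3, at least 1.03-fold higher, and 201044_x_at was under the floor on both arrays (65.9 and 3.8). At a floor of 50 these probe sets had bounds of 1.05, which is past 2-fold, and -0.40 on the log2 scale. The probe sets thus differed in direction, with 226578_s_at at signals near or below the floor. DUSP2, a nuclear phosphatase best known from leukocytes, was not measured.

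**Figure D2:**
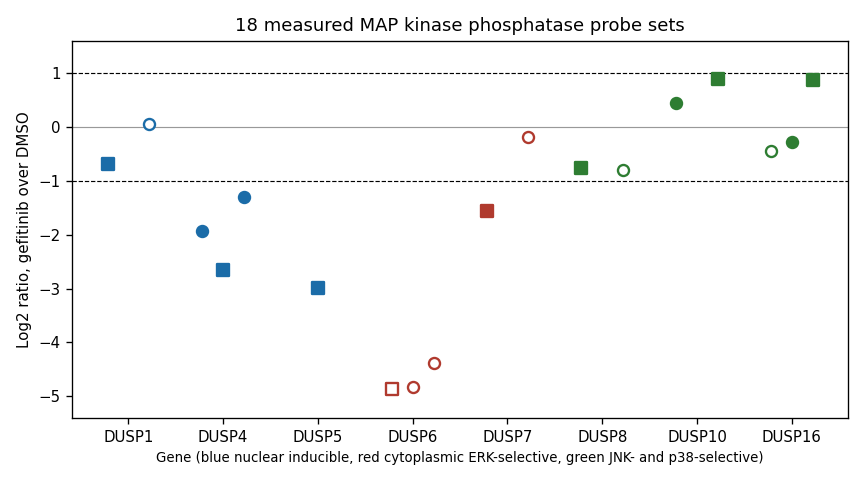
Log2 ratio between the gefitinib and DMSO arrays (vertical axis) for the 18 measured MAP kinase phosphatase probe sets, grouped by gene, 1 array per condition; squares stand for the gene, open symbols are bounds with 1 signal under the floor, and dashed lines mark 2-fold. All 3 probe sets of DUSP4 and of DUSP6 lie below the lower line, and the DUSP1 and DUSP16 probe sets lie on both sides of 0.

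The 3 members that prefer JNK and p38 were all measured, and none passed 2-fold. DUSP10 was higher with gefitinib at both of its probe sets, with signals of 893.9 and 1653.7 at 221563_at, 1.85-fold higher (log2 ratio 0.89), and 976.3 and 1326.9 at 215501_s_at, 1.36-fold higher. DUSP8 was lower at both of its probe sets. Its signals at 206374_at were 212.8 and 125.7, 1.69-fold lower (log2 ratio -0.76), and those at 238594_x_at were 174.6 and 85.0, at least 1.75-fold lower. These DUSP8 signals were close to the floor, and several DUSP8 pseudogenes are annotated in the genome, so the DUSP8 values are uncertain.

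DUSP16, a phosphatase that shuttles between nucleus and cytoplasm, had a different direction by probe set. Its brightest probe set, 224832_at, read 723.3 on the DMSO array and 1327.1 on the gefitinib array, 1.83-fold higher (log2 ratio 0.88). The signals of 224336_s_at were 388.2 and 319.4, 1.22-fold lower, and those of 1555399_a_at were 136.1 and 44.3, at least 1.36-fold lower. Another, 1563505_at, was under the floor on both arrays (6.2 and 4.6). The mean over the 3 measured probe sets was 0.05 on the log2 scale, so the ratio of DUSP16 depends on which probe set is read.

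By group, 2 of 3 measured nuclear inducible members and 2 of 2 measured cytoplasmic ERK-selective members were at least 2-fold lower. Of the JNK- and p38-selective members 0 of 3 were, and of all measured genes 6.2%. DUSP7 passed at its brightest probe set but not with the mean over its probe sets (-0.88). The difference between the groups was not tested. The SD of the log2 ratio between measured probe sets of 1 gene was 0.58 over 5432 genes, which describes the spread of the probe sets and not that of cultures. Of all measured genes, 5% had a log2 ratio below -1.11 and 5% had one above 1.55. DUSP4, DUSP5, DUSP6 and DUSP7 lay below the former value, whereas DUSP1, DUSP8, DUSP10 and DUSP16 lay between them.

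**Figure D3:**
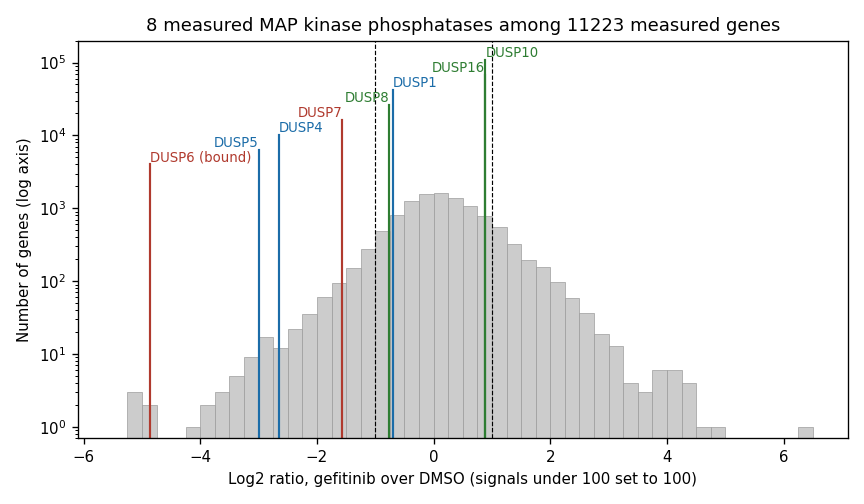
Number of genes (vertical log axis) by log2 ratio between the gefitinib and DMSO arrays (horizontal axis, bins of 0.25) for the 11223 measured genes, 1 array per condition, with dashed lines at 2-fold. Coloured lines mark the 8 measured MAP kinase phosphatases at their brightest probe set (blue nuclear inducible, red cytoplasmic ERK-selective, green JNK- and p38-selective; line heights only separate the labels), from -4.87 for DUSP6, a bound, to 0.89 for DUSP10.

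The scaling of the arrays did not move the lower genes across the threshold, but it did move the higher ones. As deposited, 68.2% of all genes past 2-fold were higher with gefitinib, and this share was 50.5% with scaling to the bacterial spike-in transcripts, 78.3% with centring on the normalization-control probe sets and 80.4% with scaling to GAPDH. These 3 scalings moved the median of all measured genes by -0.18, 0.13 and 0.17 on the log2 scale. DUSP4, DUSP5, DUSP6 and DUSP7 stayed at least 2-fold lower under each of the 5 other scalings tried. DUSP10 and DUSP16 passed 2-fold under the latter 2 scalings, where DUSP10 reached a log2 ratio of 1.06 and DUSP16 of 1.05. DUSP1 and DUSP8 stayed within 2-fold, with log2 ratios from -0.88 to -0.52 and from -0.96 to -0.58.

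**Figure D4:**
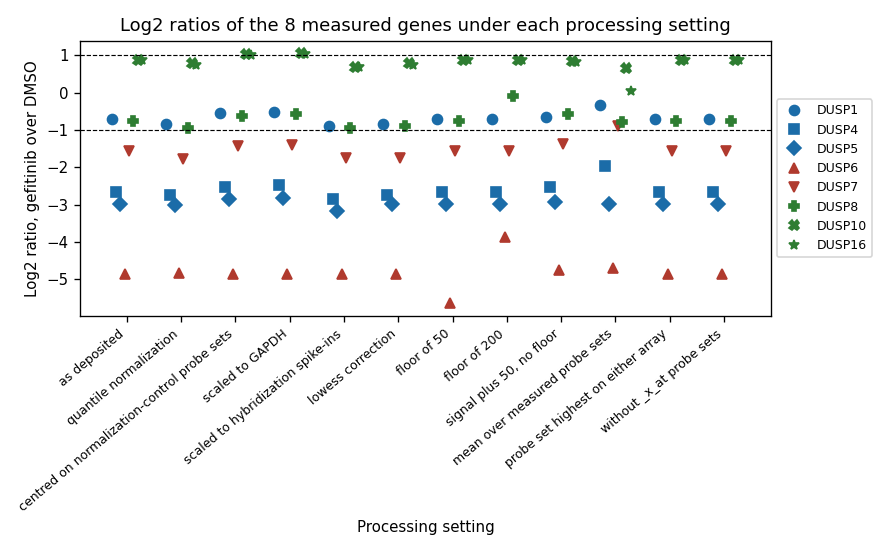
Log2 ratio between the gefitinib and DMSO arrays (vertical axis) of the 8 measured MAP kinase phosphatases under each processing setting (horizontal axis), 1 array per condition; symbols are blue for nuclear inducible, red for cytoplasmic ERK-selective and green for JNK- and p38-selective genes and dashed lines mark 2-fold. DUSP4, DUSP5 and DUSP6 lie below the lower line in each setting, DUSP7 lies above it with the mean over probe sets, and DUSP6 differs between floors, at a floor of 50 also because another probe set stands for it.

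Promoter sequences are shown for DUSP6 and DUSP7, which were lower, for DUSP10, which had the highest ratio, and for DUSP1, which was within 2-fold, so that the DNA just before the start of these genes can be compared. Each is the 250 bases before the annotated gene start, from RefSeq (GRCh38.p14), 5′ to 3′ on the strand of the gene, and capitals mark a searched motif. The table held 10 such windows for 8 of the 10 genes, and DUSP4 and DUSP5 were not among them. DUSP6 lies on the minus strand at chr12:89352502-89352751, DUSP7 on the minus strand at chr3:52056572-52056821, DUSP1 on the minus strand at chr5:172771196-172771445, and the upstream start of DUSP10 on the minus strand at chr1:221742090-221742339.
DUSP6: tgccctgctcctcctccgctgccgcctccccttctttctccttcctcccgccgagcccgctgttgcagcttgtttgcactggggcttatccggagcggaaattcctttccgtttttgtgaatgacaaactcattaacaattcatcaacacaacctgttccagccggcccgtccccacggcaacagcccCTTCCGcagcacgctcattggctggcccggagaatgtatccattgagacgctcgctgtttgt
DUSP7: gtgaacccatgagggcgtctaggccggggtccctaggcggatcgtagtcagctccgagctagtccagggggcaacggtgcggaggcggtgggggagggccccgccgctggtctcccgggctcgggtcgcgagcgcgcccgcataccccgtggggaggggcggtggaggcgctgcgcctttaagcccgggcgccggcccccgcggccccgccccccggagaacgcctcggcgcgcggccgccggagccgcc
DUSP1: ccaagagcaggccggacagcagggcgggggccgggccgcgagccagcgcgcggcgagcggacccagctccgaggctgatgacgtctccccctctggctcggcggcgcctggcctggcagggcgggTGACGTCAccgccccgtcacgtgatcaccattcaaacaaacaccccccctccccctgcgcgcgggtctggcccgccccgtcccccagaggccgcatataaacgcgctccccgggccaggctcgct
DUSP10: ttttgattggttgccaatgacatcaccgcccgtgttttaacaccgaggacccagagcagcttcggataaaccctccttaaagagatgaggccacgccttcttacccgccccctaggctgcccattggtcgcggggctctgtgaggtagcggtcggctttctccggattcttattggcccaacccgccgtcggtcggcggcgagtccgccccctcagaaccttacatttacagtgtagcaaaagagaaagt

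The motifs searched on both strands were CGGAAG, a form of the site bound by ETS factors, and TGACGTCA, the cAMP response element. TGANTCA, where N is any base, which covers the AP-1 site, and the serum response element were searched as well. Other forms of the ETS site were not searched. CGGAAG was found in the windows of DUSP6, where it begins 62 bases before the gene start on the opposite strand, and of DUSP8. It occurs in 16.5% of all 35116 windows. The cAMP response element was found in the windows of DUSP1, 125 bases before the start, and of DUSP8, which holds 2, against 1.65% of all windows. No member window held TGANTCA (6.57% of all windows) or a serum response element (1.16%). No matches overlapped. DUSP6 and DUSP7 thus shared none of these motifs in these windows, since that of DUSP7 held none.

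Most measured kinases of the MAP kinase pathways were within 2-fold, as were 9036 of all 11223 measured genes. Of 9 kinases of the ERK cascade and its ERK5 branch, 6 were measured and 3 were not analysed here. None of the 6 passed 2-fold, and their median log2 ratio was 0.13. MAPK3, which is ERK1, had signals of 1739.7 (DMSO) and 2957.7 (gefitinib), 1.70-fold higher, and MAP2K1, which is MEK1, had 6411.1 and 3850.4, 1.67-fold lower. MAP2K5, the kinase of ERK5, was 1.26-fold higher at its brightest probe set (log2 ratios of its probe sets from 0.33 to 1.20) and MAP2K2, or MEK2, 1.22-fold higher (from -0.14 to 0.29).

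Of 11 kinases of the JNK and p38 pathways, 7 were measured, and MAP2K3, MAP2K7 and MAPK14 were not analysed here. Their median log2 ratio was 0.24. MAPK13, the p38 isoform of many epithelia, was the only member of this list past 2-fold. Its signals were 3075.8 (DMSO) and 1291.0 (gefitinib), 2.38-fold lower, with log2 ratios of -1.25 and -1.31 at its probe sets. Of all measured genes, 6.2% were at least 2-fold lower and 13.3% at least 2-fold higher. MAPK12, another p38 isoform, was 1.77-fold higher, the JNK gene MAPK8 was 1.70-fold lower at its brightest probe set (from -0.77 to 0.46) and MAPK10, also a JNK, was 1.57-fold higher. Of the 5 other scalings, that to GAPDH alone took MAPK12 past 2-fold.

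The other phosphatases that act on MAP kinases differed from the family in how many passed 2-fold, a difference that was not tested. Of 8 tyrosine, PPM and PP2A-type phosphatases known to dephosphorylate MAP kinases, 6 were measured, with a median log2 ratio of 0.14. Of all measured genes 6.2% were at least 2-fold lower, and of these 6 it was 1 gene. It was PTPRR, a tyrosine phosphatase that docks to ERK, with signals of 760.6 (DMSO) and 95.3 (gefitinib) at 210675_s_at, at least 7.61-fold lower, and a log2 ratio of -1.83 at its other measured probe set. PPM1B was 1.72-fold higher, PPM1A 1.67-fold higher (log2 ratios of its probe sets from -1.58 to 0.74) and PPP2CB, a catalytic subunit of PP2A, 1.55-fold lower.

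The atypical dual-specificity phosphatases share the catalytic fold of the family but not its MAP kinase docking domain, and their list also held the catalytically inactive relatives STYX, STYXL1 and STYXL2. Of these 16 genes, 9 were measured. As with 9036 of all 11223 measured genes, none of the 9 passed 2-fold in either direction. Their median log2 ratio was -0.06 and their range ran from -0.59 to 0.33. DUSP11, a phosphatase of RNA, was 1.51-fold lower with signals of 3379.2 and 2243.1. STYXL1 was 1.29-fold lower, DUSP22 1.26-fold higher and DUSP12 1.23-fold higher at their brightest probe sets. The probe sets of STYXL1 ran from -0.95 to -0.04 on the log2 scale and those of DUSP22 from -0.21 to 0.33.

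Transcripts known to depend on ERK, with the DUSP genes left out, included 19 measured genes of 20, with a median log2 ratio of -2.30. Of these, 12 were at least 2-fold lower and 1, EPHA4, was higher, against 6.2% and 13.3% of all measured genes. Over the scalings 12 to 14 were lower, and 2 were higher with centring on control probe sets or scaling to GAPDH. MYC was 1.97-fold higher, and CCND1 had signals of 2080.5 (DMSO) and 2074.2 (gefitinib) at its brightest probe set. The ETS factors ETV1 and ETV5 were each at least 36.8-fold lower at their brightest probe set, and their other probe sets reached as far as -1.76 and -0.96. PHLDA1 was 30.4-fold lower and the feedback inhibitor SPRY4 was 11.9-fold lower. This list was chosen with results of these data known and is no independent evidence of its direction.

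**Figure D5:**
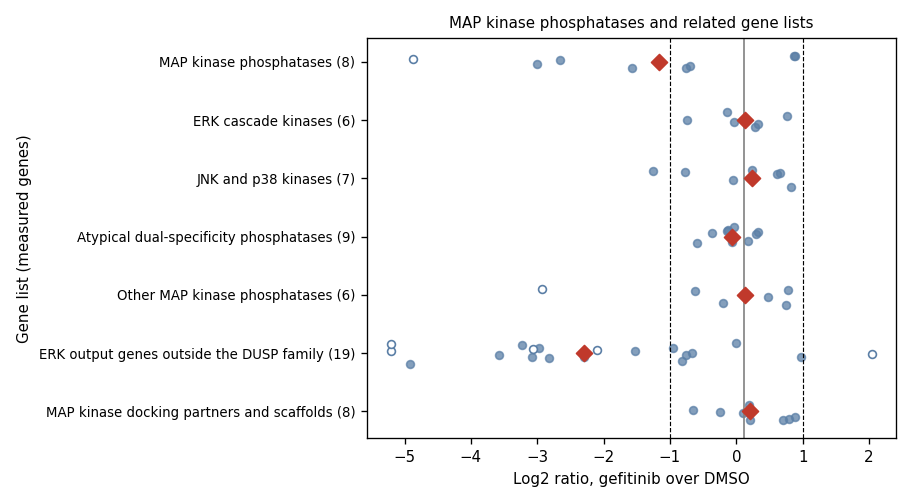
Log2 ratio between the gefitinib and DMSO arrays (horizontal axis) of genes measured in the MAP kinase phosphatases and 6 related lists (vertical axis, number of measured genes in parentheses), 1 array per condition. Points are genes at their brightest probe set, open where they are bounds, red diamonds are medians, the grey line is the median of all measured genes and dashed lines mark 2-fold; the medians run from -2.30 for ERK output genes and -1.16 for the phosphatases to 0.24 for JNK and p38 kinases.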

How the data were processed

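The authors deposited linear MAS5 signal intensities from Affymetrix U133 Plus 2.0 arrays, with a column for each array. MAS5 is named by the submitters' processing notes without a version. It brings each array to a common trimmed mean with 1 factor, which would hide a change shared by most transcripts. Array annotation gave 1 gene for 41097 of 54675 probe sets, several for 1801, and none was listed for 11777, and symbols were updated through RefSeq (GRCh38.p14) for 41043. Signals under 100 were set to 100, and a gene's log2 ratio (gefitinib over DMSO) was read at its brightest probe set, the one whose mean log2 signal was highest. With 1 array per condition no test was run, and precision is limited by the number of arrays. Detection calls of the members were not used here.

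The members and lists were chosen with earlier results of these data known. The text names all members, and up to 4 genes of each related list with the largest log2 ratio in size. It also names EPHA4, MYC, CCND1, STYX, STYXL2, DUSP5P1 and the marker genes. The rule also named the 5 genes with signals nearest to those of DUSP6, which are not reported because it sets levels of different probe sets against each other. Of the kinase lists, 3 genes of the ERK cascade and MAP2K3, MAP2K7 and MAPK14 were not analysed here. Alternatives were quantile normalization, centring on 100 normalization-control probe sets (200000 to 200099), scaling to the GAPDH 3' control or to 18 spike-in probe sets, lowess (span 0.3), floors of 50 and 200, log2 of the signal plus 50, the mean over probe sets, the probe set highest on either array, no _x_at probe sets, and thresholds of 1.5-fold and 3-fold. Simulated arrays with known folds were used to test the procedure. The tools were Python 3.11.15 with pandas 2.3.3, numpy 2.4.6, statsmodels 0.14.6, scipy 1.17.1 and matplotlib 3.10.9.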

Additional observations from a re-analysis of the deposited data

How the results depend on the processing

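The number of MAP kinase phosphatase genes at least 2-fold lower was between 3 and 6 over the 13 alternatives: it was 3 with the mean over probe sets, where DUSP7 dropped out, and at a threshold of 3-fold, 6 at 1.5-fold, where DUSP1 and DUSP8 were added, and 4 otherwise. The number at least 2-fold higher was 2 with centring on control probe sets, with scaling to GAPDH and at a threshold of 1.5-fold (DUSP10 and DUSP16 each time), and 0 in the other 10. The number of probe sets lower ran from 6 to 11 and the median log2 ratio of the genes from -1.36 to -0.76. At a floor of 50 DUSP9 was measured as well, with a log2 ratio that is a bound. Single genes that moved by more than the spread of 0.58 between probe sets were DUSP6 at a floor of 200 (-3.87, a bound) and at a floor of 50 (-5.65, where another probe set stood for the gene; the original one gave -5.81), DUSP8 at a floor of 200 (-0.09, a bound), and, with the mean over probe sets, DUSP4 (-1.96), DUSP7 (-0.88) and DUSP16 (0.05). No gene of the 8 changed sign. Of 358 values recomputed, 25 moved in this sense or by over 1.5 times in a count, and most of these were counts of 0 to 3 genes in the related lists. No paired analysis was possible because there was 1 array per condition, and no array could be left out. Signals under the floor have no order, which leaves DUSP2 and DUSP9 without a ratio and DUSP6 with a bound at the floor of 100.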

Other observations

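Scaffold and docking proteins of the MAP kinases were outside the comparisons above. Of 10 such genes, 8 were measured, with a median log2 ratio of 0.20. As with 9036 of all 11223 measured genes, none of the 8 was at least 2-fold lower or higher. ARRB1, which encodes the scaffold beta-arrestin 1, was higher with gefitinib at each of its 7 measured probe sets, with signals of 357.4 (DMSO) and 616.5 (gefitinib) at the brightest (1.72-fold higher) and log2 ratios from 0.28 to 1.53. KSR2, a scaffold of RAF, MEK and ERK, was 1.84-fold higher with signals of 107.3 and 197.2, both near the floor. The JNK scaffolds MAPK8IP3 and MAPK8IP2 were 1.62-fold higher and 1.57-fold lower. With centring on control probe sets or scaling to GAPDH, 1 gene of this list passed 2-fold upward.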
